A study of Mus musculus with 12 samples.

Results

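The genes of the proteasome and of its assembly were followed through 12 RNA-Seq libraries of cultured mouse hippocampal neurons, in which somas and neurites had been separated with and without proteasome inhibition. The members were the protein-coding genes whose mouse symbol is Psma, Psmb, Psmc, Psmd, Psme, Psmf or Psmg followed by a number, plus *Pomp*, the proteasome maturation protein. There were 49 of them among the 27179 genes listed in each count table (0.18%). The symbols *Psmc3ip* and *Psme3ip1* match only by their first letters and were set aside, 6 pseudogenes with matching names were not counted, and *Psme2b* was not analysed here. Of the 49 members, 47 passed the filter on low counts and were tested among 14185 genes, while *Psma8* and *Psmb11* were not.

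By the labels the neurons came from newborn C57BL/6 pups (P0 or P1), while the study's methods name P0 pups and FVB mice as well, and which libraries held which strain is not given. They were kept in culture for 17 or 18 days on porous Transwell membranes, where cell bodies stay on the upper face while their axons and dendrites pass to the lower one, and the neurites fraction therefore holds both kinds of projection. Cultures received 10 µM MG132, a peptide aldehyde that inhibits the proteasome, for 7 h, or the solvent DMSO alone (Ctrl), and polyadenylated RNA was sequenced. The 4 groups of 3 libraries were Ctrl somas, MG132 somas, Ctrl neurites and MG132 neurites. Library totals ran from 6799464 to 10052321 counts in Ctrl somas, 5750510 to 9460135 in Ctrl neurites, 4247610 to 18411436 in MG132 somas and 6545752 to 22166347 in MG132 neurites, and the proteasome genes took 6458 to 114249 counts of a library. No source states that the 3 libraries of a group came from separate cultures, so the p-values measure the spread between these libraries, which may be technical.

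The 26S proteasome degrades proteins tagged with ubiquitin. Its 20S core is a barrel of stacked rings, with outer rings of alpha subunits that gate the entrance and inner rings of beta subunits that carry the active sites, and its 19S cap recognises tagged proteins, removes the ubiquitin and unfolds the substrate with a ring of ATPases. Neurons depend on it for protein quality control and for remodelling synapses, and many cell types answer inhibition of the proteasome by making more proteasome mRNA, a response in which the transcription factor NRF1, encoded by *Nfe2l1*, is well known.

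Levels below are CPM (counts scaled to library size, with TMM factors), and a difference is the log2 ratio estimated by edgeR over all 12 libraries. A gene is called higher or lower where its Benjamini-Hochberg adjusted p over all tested genes was under 0.01 and its change exceeded 1.7-fold.

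The fractions carried the markers of neurons in all libraries, with summed levels of 7 neuronal markers between 719 and 1567 CPM, but glial RNA was present as well. The 7 astrocyte markers summed to 4598 to 5680 CPM in Ctrl somas and 20795 to 25749 CPM in Ctrl neurites, and *Gfap* was the most abundant of them. Without *Gfap* the other 6 summed to 3036 to 3252.5 CPM and 4149 to 5189 CPM, and of the 7 genes 3 were called higher and 1, *Gja1*, lower in Ctrl neurites. The 7 oligodendrocyte markers summed to 3094, 1430.2 and 6352 CPM in Ctrl somas and 13341, 4983 and 21988 CPM in Ctrl neurites, with 0 called. *Mbp* was the most abundant of these (5353.5 CPM on average over the 12 libraries), and their median log2 ratio of Ctrl neurites to Ctrl somas was 0.07. Of 5 RNAs known to stay in the nucleus, 3 were lower in Ctrl neurites than in Ctrl somas. In such bulk samples, fewer cells of a type and less RNA per cell cannot be told apart.

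The first question was how inhibition of the proteasome changed the mRNAs of the proteasome itself in the cell bodies. Together, the 49 genes summed to 1504, 1455 and 1567 CPM in the libraries of Ctrl somas, and in those of MG132 somas the sum was 3106, 3333 and 3507 CPM. The lowest MG132 library was above the highest Ctrl library. Of the 47 tested members, 28 were called higher with MG132 in somas (59.6%), against 9% of all tested genes, and none was called lower, against 5.58% of all tested genes. At an unadjusted p under 0.05, 34 members were higher and 0 were lower in edgeR, as compared with 20.4% and 18.3% of all tested genes, and DESeq2 also called 0 lower. Their median log2 fold change was 1.01 (2.02-fold), whereas the median of all tested genes was −0.07. The 3 MG132 libraries lay above the 3 Ctrl libraries for 36 of the 47, as they did for 23.2% of all tested genes, and below them for 1, as compared with 22.7%.

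The same comparison in neurites gave 30 members called higher of 47 (63.8%), against 9.25% of all tested genes, and 0 called lower, against 5.44%. One member, *Psmb8*, was lower at an unadjusted p under 0.05 (2.13%, against 19.5% of all tested genes), and DESeq2 called 0 lower. The summed level was 1709, 1870 and 2095 CPM in the Ctrl neurites and 4360, 5165 and 4922 CPM in the MG132 neurites, again without overlap. The members' median log2 fold change was 1.24 (2.36-fold) and that of all tested genes was −0.16. All 28 members called in somas were also called in neurites, and the 2 called in neurites alone were *Psma3* and *Psme3*. With libraries scaled by their total counts in place of TMM, 9 members were called in somas and 15 in neurites, although the medians remained at 0.98 and 1.08. The members' medians were then 1.08 and 1.38 above those of all tested genes, as compared with 1.08 and 1.40 with TMM. The share of all tested genes called with that scaling is not given here. Leaving out 1 soma library at a time left 21 to 24 members called, with 21 without Ctrl somas replicate 1, Ctrl somas replicate 2 or MG132 somas replicate 3, and the calls lost in these 6 fits were among *Psma1*, *Psma4*, *Psma5*, *Psma6*, *Psmc1*, *Psmc2*, *Psmd9* and *Psmd13*. In neurites the 6 such fits lost no call.

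**Figure D1:**
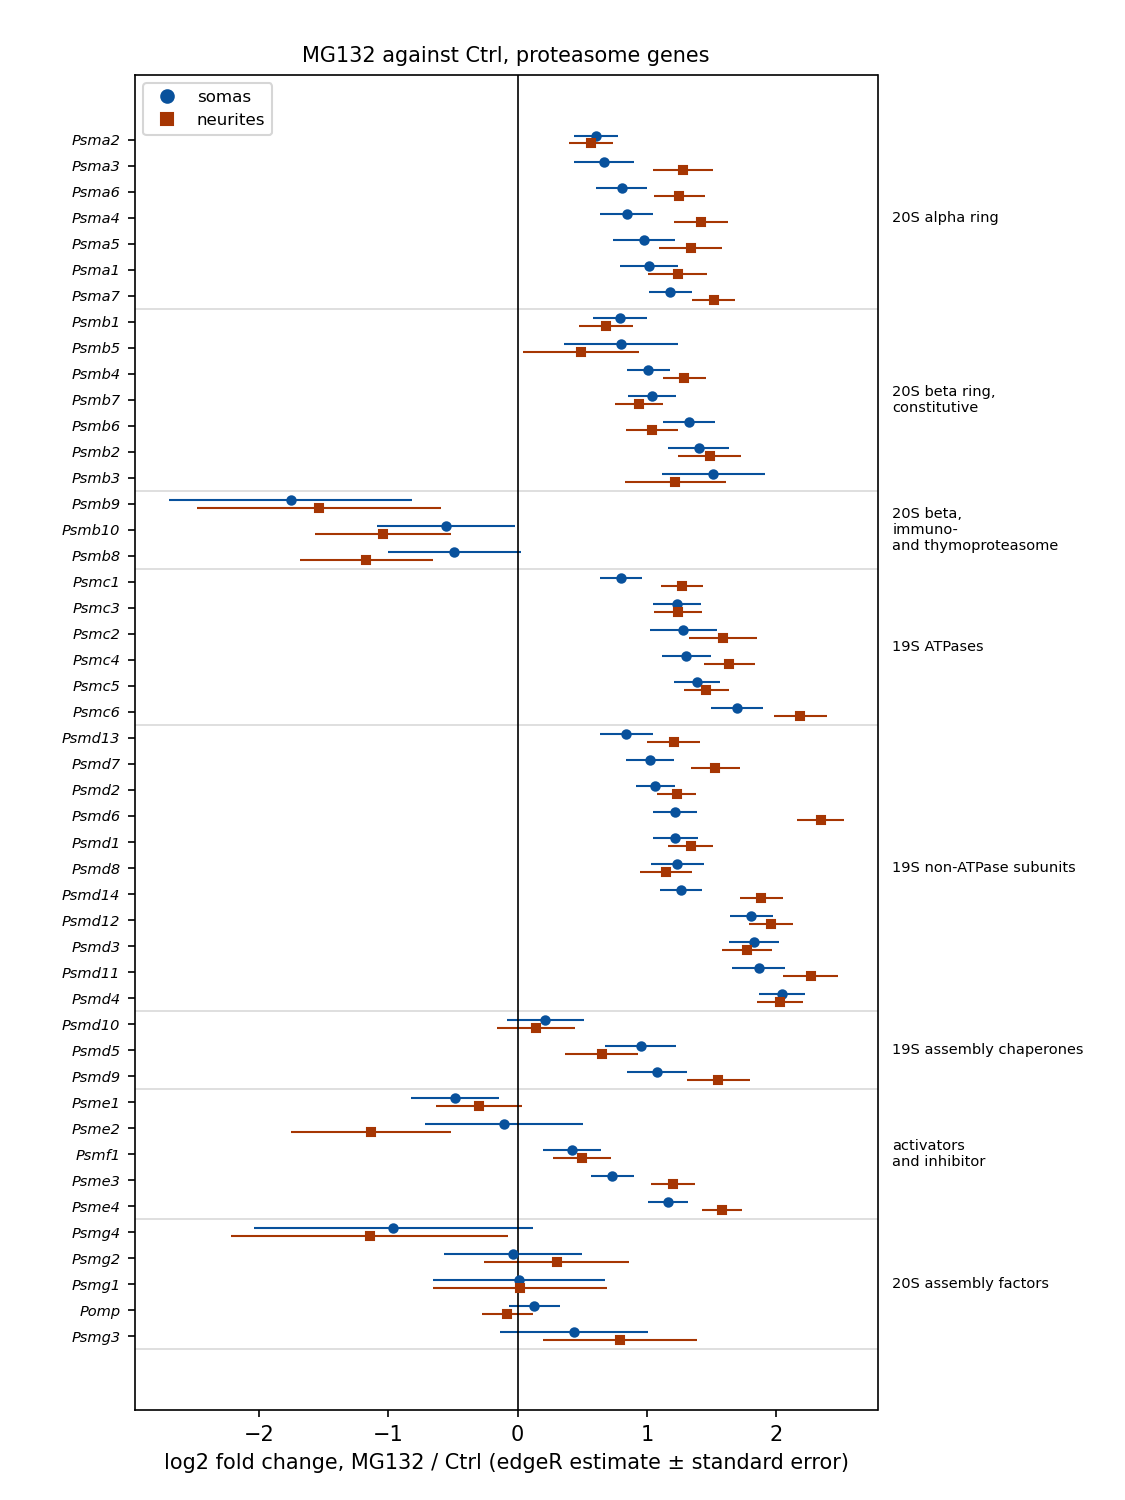
Log2 fold change with MG132 of the 47 tested proteasome genes (rows, grouped by role) in somas (circles) and neurites (squares), as edgeR estimates with their standard errors, from 3 libraries a group. Subunits of the 19S cap and the constitutive 20S core lie to the right of 0 in both fractions, while immunoproteasome subunits lie to its left and 20S assembly factors lie on both sides of it.

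In the 19S cap, all 6 ATPases and all 11 non-ATPase subunits, 17 of 17, were called higher in somas and again in neurites. For the ATPases the median log2 fold changes were 1.29 (somas) and 1.52 (neurites), and for the non-ATPase subunits 1.23 and 1.77. Summed over the 17 genes, the cap mRNAs of somas were at 815 ± 19.5 CPM (SD, n = 3) in Ctrl and 2042 ± 128 CPM with MG132, and those of neurites at 1006 ± 101 CPM and 3044 ± 256 CPM. Leaving out any 1 of the 6 soma libraries left 14 to 17 of the 17 called in somas, and all 17 stayed called in each of the 6 such fits in neurites. *Psmd13* was called in somas in 1 of the 6 soma fits, the one without Ctrl somas replicate 3, and its estimates in them ran from 0.64 to 1.03. With total counts 7 of the 17 were called in somas (2 ATPases and 5 others) and 12 in neurites, with medians of 1.23 and 1.51, and DESeq2 called 16 and 17.

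The largest response in somas among the non-ATPase subunits was that of *Psmd4* (Entrez gene 19185, chr3:95032688-95042614 in GRCm38.p6, as for all coordinates below), which encodes a receptor of the cap for ubiquitin chains. It read 31.4, 30.3 and 36.3 CPM (Ctrl) and 124, 142 and 139 CPM (MG132) in somas, and 42.1, 47.3 and 59.7 CPM (Ctrl) and 175, 216 and 217 CPM (MG132) in neurites. Every MG132 library stood above every Ctrl library of its fraction. The log2 fold change was 2.05 ± 0.18 (SE, adjusted p = 2.85e-06) in somas and 2.03 ± 0.18 (adjusted p = 2.41e-06) in neurites, or 4.13-fold and 4.08-fold.

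Next came *Psmd11*, *Psmd3* and *Psmd12*, which encode structural subunits of the lid, the part of the cap that holds the deubiquitinase. Their log2 fold changes were 1.86, 1.83 and 1.81 in somas and 2.27, 1.77 and 1.96 in neurites. *Psmd14*, which encodes that deubiquitinase, rose in somas (50.6 ± 2.46 CPM in Ctrl, 122 ± 19.2 CPM with MG132) and in neurites (64.7 ± 6.56 and 239.1 ± 19.1 CPM). The smallest response of this set in somas belonged to *Psmd13*, another lid subunit. It was measured in somas at 36.7, 25.0 and 44.7 CPM without and 59.0, 61.9 and 69.3 CPM with MG132, and in neurites at 28.6, 33.2 and 30.4 CPM without and 64.6, 72.2 and 76.3 CPM with it. The groups did not overlap in either fraction, and the log2 fold changes were 0.84 ± 0.20 (adjusted p = 0.00695) and 1.21 ± 0.21 (adjusted p = 0.000604). The scaffold subunits *Psmd1* and *Psmd2*, to which shuttle proteins dock, rose by 1.22 and 1.06 on the log2 scale in somas and by 1.34 and 1.23 in neurites.

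Among the ATPases, which form the ring that unfolds substrates and threads them into the core, *Psmc6* changed most (chr14:45329823-45349074). It stood in somas at 39.2, 41.6 and 48.1 CPM under Ctrl and 129, 123 and 165 CPM under MG132, and in neurites at 37.6, 57.3 and 64.2 CPM and 239.5, 243.4 and 243.2 CPM in the same order. The MG132 libraries were all above the Ctrl libraries, and the 3 MG132 neurites libraries were nearly equal. The log2 fold changes were 1.69 ± 0.20 (adjusted p = 3.86e-05) and 2.18 ± 0.20 (adjusted p = 4.19e-06). At the other end, *Psmc1* read 59.0, 58.6 and 71.2 CPM (Ctrl) and 109, 103 and 116 CPM (MG132) in somas, and 74.9, 65.1 and 90.8 CPM (Ctrl) and 193, 183 and 181 CPM (MG132) in neurites. These groups were also separate, with log2 fold changes of 0.80 ± 0.16 (adjusted p = 0.00215) and 1.27 ± 0.16 (adjusted p = 5.97e-05). The call in somas was lost in 3 of the 6 fits that leave out 1 soma library, whose estimates ran from 0.75 to 0.90. It was also lost with DESeq2 (0.74) and with total counts (0.79). In neurites the call was lost with total counts (1.12) and kept with DESeq2. The other 4 ATPases gave log2 fold changes of 1.23 to 1.39 in the somas and 1.24 to 1.64 in the neurites.

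**Figure D2:**
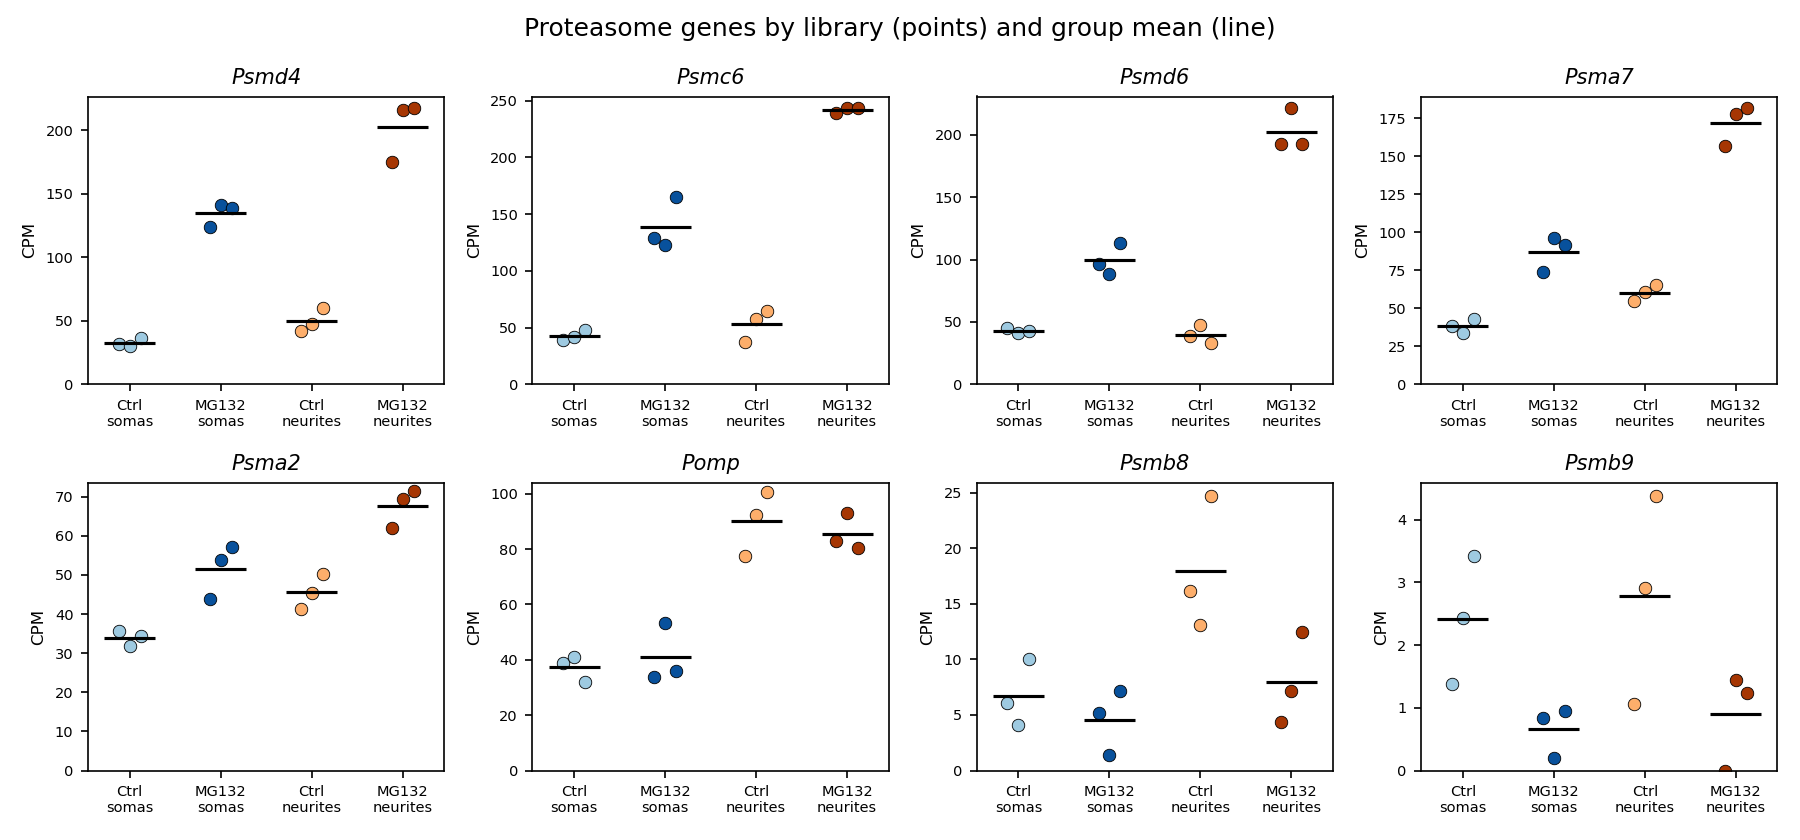
CPM of 8 proteasome genes in each of the 12 libraries (points) with the mean of each group of 3 (line), on linear axes that start at 0. For *Psmd4*, *Psmc6*, *Psmd6*, *Psma7* and *Psma2* every MG132 library lies above the Ctrl libraries of its fraction, for *Pomp* the treatments overlap, and for *Psmb8* and *Psmb9* most libraries are below 15 CPM.

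In the constitutive 20S core fewer genes passed the thresholds. Of its 14 tested subunits, 9 were called higher in somas and 10 in neurites, all 14 estimates were above 0 in both fractions, and the median log2 fold changes were 0.99 and 1.24. In somas their sum was 401 ± 27.2 CPM (SD, n = 3) in Ctrl and 792 ± 73.9 CPM with MG132, and in neurites it was 517 ± 65.3 CPM and 1169 ± 130 CPM. The count in somas moved with each of the 6 libraries: leaving out any 1 of them left 5 or 6 of these subunits called, with 1 or 2 of the alpha ring in place of 5. In neurites, the 6 such fits gave 10 or 11. With total counts 2 of the 14 were called in each fraction, with medians of 0.97 and 1.08.

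Of the alpha subunits, *Psma7* (chr2:180036367-180042464) responded most in somas. It was measured in somas at 38.5, 33.7 and 43.2 CPM without and 74.1, 96.0 and 92.0 CPM with MG132, and in neurites at 54.5, 60.6 and 65.6 CPM without and 157, 178 and 182 CPM with it. There was no overlap between treatments, and the log2 fold changes were 1.18 ± 0.17 (adjusted p = 0.000162) and 1.51 ± 0.17 (adjusted p = 1.88e-05). *Psma2* gave the smallest estimate of the ring. It stood in somas at 35.8, 31.7 and 34.3 CPM under Ctrl and 43.9, 53.7 and 57.2 CPM under MG132, and in neurites at 41.3, 45.3 and 50.1 CPM and 62.1, 69.4 and 71.6 CPM in the same order. Its groups were separate in both fractions, but the log2 fold changes of 0.60 ± 0.17 (adjusted p = 0.0164) and 0.57 ± 0.17 (adjusted p = 0.0227) did not pass.

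The alpha subunit *Psma3* was on different sides of the call rule in the fractions. It read 11.0, 8.54 and 12.8 CPM (Ctrl) and 16.1, 15.5 and 19.6 CPM (MG132) in somas, and 14.3, 17.9 and 13.1 CPM (Ctrl) and 37.6, 37.4 and 35.5 CPM (MG132) in neurites. The MG132 libraries were the higher ones in both fractions, with log2 fold changes of 0.67 ± 0.23 (adjusted p = 0.0421) and 1.28 ± 0.23 (adjusted p = 0.000903). The difference of these responses was 0.61 ± 0.32 (adjusted p = 0.754), so the fractions were not shown to differ. *Psma8*, a testis form of an alpha subunit, had at most 9 counts in any library.

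In the beta ring, *Psmb5*, *Psmb6* and *Psmb7* encode the subunits with the chymotrypsin-like, caspase-like and trypsin-like active sites. MG132 acts above all on the chymotrypsin-like site. *Psmb6* rose by 1.33 ± 0.20 on the log2 scale in somas and 1.04 ± 0.20 in neurites, and *Psmb7* by 1.04 ± 0.19 and 0.94 ± 0.19, all 4 past the thresholds. *Psmb5* was measured in somas at 6.42, 5.54 and 4.63 CPM without and 7.49, 12.1 and 9.55 CPM with MG132, and in neurites at 8.73, 5.26 and 5.72 CPM without and 3.42, 14.5 and 8.70 CPM with it. Its groups were separate in somas and overlapped in neurites, and its estimates of 0.80 ± 0.44 (adjusted p = 0.198) and 0.49 ± 0.45 (adjusted p = 0.444) did not pass. For this gene 40.0% of the 75-base stretches of its transcript also occur in another transcript, so reads could be split or lost and its level is uncertain. Its lowest library, MG132 neurites replicate 1, held 15 counts.

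The remaining beta subunits have no active site. *Psmb3* stood in somas at 6.49, 3.22 and 4.30 CPM under Ctrl and 10.9, 16.3 and 13.4 CPM under MG132, and in neurites at 3.70, 11.2 and 10.3 CPM and 19.2, 25.6 and 14.7 CPM in the same order. No library of one treatment reached into the other, but the log2 fold changes of 1.51 ± 0.40 (adjusted p = 0.0109) and 1.22 ± 0.39 (adjusted p = 0.0316) missed the threshold. *Psmb1* read 44.3, 34.2 and 33.6 CPM (Ctrl) and 62.9, 55.1 and 76.1 CPM (MG132) in somas, and 38.6, 58.4 and 61.9 CPM (Ctrl) and 84.2, 94.7 and 76.7 CPM (MG132) in neurites. It too separated the treatments, with log2 fold changes of 0.79 ± 0.21 (adjusted p = 0.011) and 0.68 ± 0.21 (adjusted p = 0.0245). With the replicate number as a block both genes were called in somas, *Psmb3* at an adjusted p of 0.00352 and *Psmb1* at 0.00241. *Psmb2* and *Psmb4* were called in both fractions, with log2 fold changes of 1.40 and 1.01 in somas and 1.48 and 1.29 in neurites.

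The immunoproteasome subunits replace the active beta subunits in immune cells and after interferon. *Psmb8* takes the place of *Psmb5*, *Psmb9* that of *Psmb6*, and *Psmb10* that of *Psmb7*. None of the 3 was called in either direction with MG132 in either fraction by edgeR or DESeq2. Of all tested genes, edgeR called 9% higher and 5.58% lower in somas, and 9.25% and 5.44% in neurites, and 0 of 3 is near such shares. All 6 estimates were below 0, as were those of 53% of all tested genes in somas and 56.4% in neurites. At an unadjusted p under 0.05, 0 of 3 moved in somas and 1 of 3, *Psmb8*, was lower in neurites, where 19.5% of all tested genes were. Their median estimates were −0.56 (somas) and −1.17 (neurites), and the first became −1.06 without MG132 somas replicate 2 and −0.95 without MG132 somas replicate 3.

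*Psmb8* (chr17:34198195-34201454) was measured in somas at 6.08, 4.10 and 10.0 CPM without and 5.18, 1.39 and 7.13 CPM with MG132, and in neurites at 16.1, 13.1 and 24.7 CPM without and 4.33, 7.14 and 12.4 CPM with it. Treatments overlapped in somas, while in neurites each MG132 library was below each Ctrl library. The log2 fold changes were −0.49 ± 0.52 (adjusted p = 0.519) and −1.17 ± 0.52 (adjusted p = 0.109). Leaving out 1 library at a time, the estimate in somas ran from −0.95 (without MG132 somas replicate 3) to −0.11 (without Ctrl somas replicate 3 or MG132 somas replicate 2) and that in neurites from −1.50 to −0.76. *Psmb9*, in the neighbouring interval chr17:34182030-34187330, had 0 to 32 counts in a library. It stood in somas at 1.38, 2.44 and 3.42 CPM under Ctrl and 0.832, 0.198 and 0.943 CPM under MG132, and in neurites at 1.06, 2.91 and 4.37 CPM and 0, 1.45 and 1.24 CPM in the same order. The MG132 somas were all below the Ctrl somas and the neurites overlapped, with log2 fold changes of −1.76 ± 0.94 (adjusted p = 0.185) and −1.54 ± 0.94 (adjusted p = 0.249). *Psmb10* read 3.04, 4.44 and 3.20 CPM (Ctrl) and 2.03, 4.16 and 1.39 CPM (MG132) in somas, and 11.4, 5.82 and 9.25 CPM (Ctrl) and 2.51, 3.53 and 6.75 CPM (MG132) in neurites. Both pairs of groups overlapped, with estimates of −0.56 ± 0.53 and −1.04 ± 0.53. *Psmb11*, the thymus form, had 1 count in all 12 libraries.

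Microglia are known to express the immunoproteasome, and their markers differed between the treatments, as did those of other cell types. The 7 microglia markers summed in somas to 570, 727 and 668 CPM (Ctrl) and 154, 285.6 and 175 CPM (MG132), and in neurites to 614, 642 and 1169 CPM (Ctrl) and 102, 194 and 229 CPM (MG132). Of the 7, 3 were called lower with MG132 in somas and 4 in neurites, the most abundant was *C1qa* (151 CPM on average), and none was at 0 in all libraries. The immunoproteasome genes summed in somas to 10.5, 11.0 and 16.7 CPM (Ctrl) and 8.05, 5.75 and 9.47 CPM (MG132), and in neurites to 28.6, 21.8 and 38.3 CPM (Ctrl) and 6.84, 12.1 and 20.4 CPM (MG132). The sum was lower with MG132 in each fraction without overlap, as was the microglia sum, and the part of microglia in the immunoproteasome values was not tested. Of the 7 astrocyte markers, 4 were called lower with MG132 in somas and 3 in neurites, with median log2 fold changes of −1.08 and −0.79. Of the 7 oligodendrocyte markers 2 were called lower in each fraction (medians −0.81 and −1.04), and of 4 tested endothelial and fibroblast markers 2 in somas and 0 in neurites (medians −1.58 and −0.98). The part of these cells in the responses of the proteasome genes was not tested either. The 7 neuronal markers had median log2 fold changes of −0.18 with MG132 in both fractions.

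**Figure D3:**
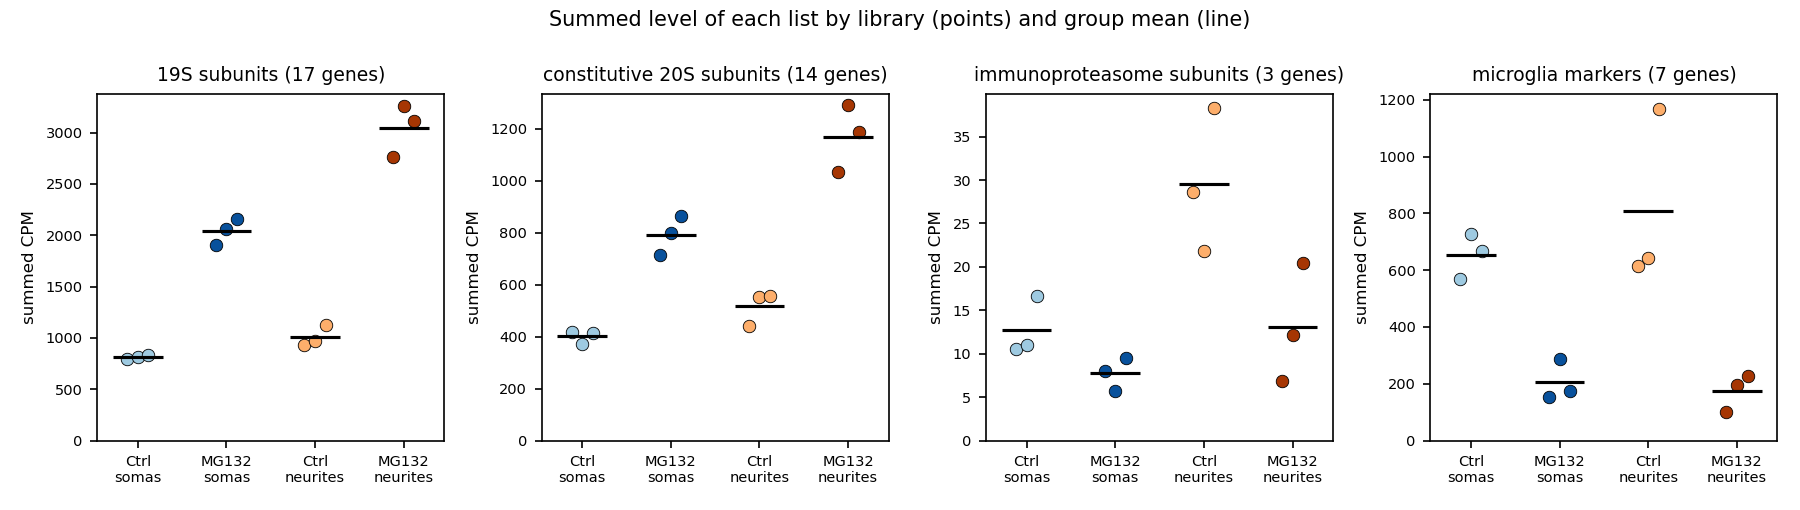
Summed CPM of the 19S subunits, the constitutive 20S subunits, the immunoproteasome subunits and the microglia markers in each library (points), with group means (lines) and axes from 0. Both sets of constitutive subunits are higher with MG132 in both fractions without overlap, and both the immunoproteasome and the microglia sums are lower without overlap.

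Activators bind the 20S core in place of the 19S cap. *Psme4*, which encodes a large nuclear activator, was the member of this set that changed most in somas. It was measured in somas at 90.2, 90.5 and 107 CPM without and 210, 214 and 222 CPM with MG132, and in neurites at 61.9, 68.0 and 76.5 CPM without and 191, 206 and 221 CPM with it. The treatments were far apart, and the gene was called higher in both fractions, with log2 fold changes of 1.16 ± 0.15 (adjusted p = 9.17e-05) and 1.58 ± 0.16 (adjusted p = 6.69e-06). *Psme3*, which encodes another nuclear activator, stood in somas at 59.1, 54.1 and 67.1 CPM under Ctrl and 110, 97.8 and 91.4 CPM under MG132, and in neurites at 63.5, 65.5 and 86.6 CPM and 166, 157 and 173 CPM in the same order. It was higher with MG132 in every library, passing both thresholds in neurites (1.20 ± 0.17, adjusted p = 0.000118) and missing the fold threshold in somas (0.73 ± 0.17, adjusted p = 0.00472). The difference of its responses was 0.47 ± 0.24 (adjusted p = 0.738).

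*Psme1* and *Psme2* encode the partners of the activator that interferon induces. *Psme1* read 11.8, 12.6 and 18.8 CPM (Ctrl) and 13.4, 4.16 and 12.5 CPM (MG132) in somas, and 28.8, 24.3 and 32.8 CPM (Ctrl) and 24.0, 21.8 and 24.1 CPM (MG132) in neurites. It overlapped in somas and was slightly lower in each MG132 neurites library, with log2 fold changes of −0.48 ± 0.34 (adjusted p = 0.313) and −0.30 ± 0.33 (adjusted p = 0.544), which ran from −0.73 to −0.15 and from −0.40 to −0.07 with 1 library left out. *Psme2* was measured in somas at 3.80, 3.66 and 4.08 CPM without and 4.53, 0.595 and 5.13 CPM with MG132, and in neurites at 11.4, 5.82 and 11.1 CPM without and 1.60, 4.48 and 6.57 CPM with it. Its treatments overlapped, its estimates of −0.11 ± 0.61 and −1.13 ± 0.62 did not pass, and 51.7% of the 75-base stretches of its transcript occur in another transcript, which makes its level uncertain. *Psmf1*, which encodes an inhibitor of the core, gave 0.42 ± 0.22 (adjusted p = 0.176) and 0.50 ± 0.22 (adjusted p = 0.117).

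Other members assemble the proteasome without being part of it. For the 20S core these are *Psmg1* to *Psmg4*, which bring the alpha ring together, and *Pomp*, which guides the beta subunits. Of these 5 genes, 0 were called in either direction with MG132 in somas or in neurites by edgeR or DESeq2, 0 passed an unadjusted p of 0.05, and their median log2 fold changes were 0.01 and 0.02. Of all tested genes, edgeR called 9% higher and 5.58% lower in somas, and 9.25% and 5.44% in neurites. At an unadjusted p under 0.05 these shares were 20.4% and 18.3% in somas, and 19.1% and 19.5% in neurites. For 5 genes, 0 called is near such shares and does not set them apart. These medians rest on single libraries: leaving out 1 at a time, they ran from −0.11 (without Ctrl somas replicate 2) to 0.22 (without MG132 somas replicate 3) in somas and from −0.17 (without Ctrl neurites replicate 1) to 0.62 (without Ctrl neurites replicate 3) in neurites, with 0 called in each fit.

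*Pomp* (chr5:147860628-147875784) had the smallest standard error among them. It stood in somas at 39.0, 40.9 and 32.0 CPM under Ctrl and 33.7, 53.3 and 36.1 CPM under MG132, and in neurites at 77.5, 92.3 and 101 CPM and 82.8, 92.9 and 80.3 CPM in the same order. The treatments overlapped in both fractions, and the log2 fold changes were 0.13 ± 0.20 (adjusted p = 0.674) and −0.08 ± 0.20 (adjusted p = 0.799). *Psmg3* read 1.52, 2.22 and 4.41 CPM (Ctrl) and 5.27, 1.78 and 3.73 CPM (MG132) in somas, and 1.59, 3.02 and 2.52 CPM (Ctrl) and 3.19, 4.52 and 4.79 CPM (MG132) in neurites, and *Psmg4* had 0 to 42 counts in a library. *Psmg4* was measured in somas at 0.345, 1.66 and 2.32 CPM without and 0.185, 0 and 1.72 CPM with MG132, and in neurites at 2.12, 4.14 and 2.69 CPM without and 0.228, 1.90 and 1.78 CPM with it. The log2 fold changes were 0.44 ± 0.57 and 0.79 ± 0.59 for *Psmg3* and −0.96 ± 1.08 and −1.14 ± 1.07 for *Psmg4*, whereas the median standard error of the members was 0.20 and 0.21. Leaving out 1 soma library moved the estimate of *Psmg3* between 0.07 (without MG132 somas replicate 1) and 0.98 (without Ctrl somas replicate 3), and that of *Psmg4* between −3.46 (without MG132 somas replicate 3) and −0.47 (without Ctrl somas replicate 3).

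The chaperones of the 19S cap were mixed. *Psmd9* stood in somas at 10.5, 11.0 and 11.5 CPM under Ctrl and 24.8, 22.0 and 22.6 CPM under MG132, and in neurites at 7.14, 9.62 and 8.91 CPM and 19.6, 29.5 and 26.5 CPM in the same order. It was called higher in both fractions without overlap, with log2 fold changes of 1.08 ± 0.23 (adjusted p = 0.00337) and 1.55 ± 0.24 (adjusted p = 0.000281). The call in somas was lost in 5 of the 6 fits that leave out 1 soma library, all but that without MG132 somas replicate 2, and with total counts it was lost in both fractions. *Psmd10* read 8.91, 5.10 and 8.71 CPM (Ctrl) and 9.25, 7.93 and 9.18 CPM (MG132) in somas, and 11.1, 10.5 and 11.9 CPM (Ctrl) and 10.3, 11.7 and 15.1 CPM (MG132) in neurites. Its treatments overlapped in both fractions, and its estimates were 0.22 ± 0.30 (adjusted p = 0.638) and 0.14 ± 0.30 (adjusted p = 0.765). *Psmd5* fell short at 0.95 ± 0.28 (adjusted p = 0.0188) in somas and was called there with the replicate block (adjusted p = 0.00413). DESeq2 also called it in somas (0.89, adjusted p = 0.00982). In neurites it gave 0.65 ± 0.28 (adjusted p = 0.0992), and DESeq2 did not call it (adjusted p = 0.0954).

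Whether the response differed between somas and neurites was tested directly. Of the 47 members, 0 had a difference of responses past an adjusted p of 0.01 in edgeR without the replicate block. The same held for 0 of all tested genes (0% higher and 0% lower). With the block 0 members passed as well, but the pathway gene *Ubqln1*, described below, did. How many of all tested genes passed with the block or in DESeq2 is not given here. At an unadjusted p under 0.05, 2 members (4.26%) and 474 of all genes (3.34%) had a larger response in neurites, and 0 members and 526 of all genes (3.71%) a smaller one. Those members were *Psmd6* and *Psmd14*, both subunits of the lid. *Psmd6* (chr14:14112185-14120945) was measured in somas at 44.9, 40.7 and 42.8 CPM without and 96.7, 88.0 and 113 CPM with MG132, and in neurites at 38.6, 47.8 and 33.0 CPM without and 192, 221 and 193 CPM with it. Its Ctrl fractions overlapped, whereas each MG132 neurites library was well above each MG132 somas library. It rose 2.32-fold in somas and 5.07-fold in neurites, and the difference of 1.13 ± 0.24 on the log2 scale had an adjusted p of 0.328 with edgeR, 1 with total counts (where it was 1.01), 0.215 to 0.711 with 1 library left out, 0.0224 with the replicate block and 0.00257 with DESeq2, which gave an adjusted p for 36 of the 47 members and called this 1. *Psme2* and *Psmb8* had the next largest differences in size, −1.03 ± 0.86 and −0.68 ± 0.73, and neither passed. With 1 library left out they ran from −1.46 to −0.57 and from −1.05 to −0.15.

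The next question was how the proteasome mRNAs were distributed between the fractions. In Ctrl cultures the call of a higher level in neurites went to 2 of 47 members, *Pomp* and *Psmc5*, against 6.15% of all tested genes, and 0 were called lower in edgeR or DESeq2, against 1.28%. At an unadjusted p under 0.05, 18 members were higher (38.3%, against 15.6% of all tested genes) and 1, *Psme4*, was lower (2.13%, against 12%). The median log2 ratio was 0.31 and that of all tested genes was −0.04. With 1 library left out, the members' median ran from 0.18 (without Ctrl neurites replicate 3) to 0.42 (without Ctrl neurites replicate 1). These ratios depend on the scaling: with libraries scaled by total counts the median of all genes moved to −0.70, the members' median was −0.32, and 9 members were above 0 in place of 33, although the members remained 0.39 above the median of all genes as compared with 0.35.

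*Pomp* had the most certain ratio, with all Ctrl neurites libraries above all Ctrl somas libraries and a log2 ratio of 1.27 ± 0.20 (2.42-fold, adjusted p = 0.000421). With total counts the ratio was 0.61 (adjusted p = 0.178). *Psmc5*, an ATPase gene, read 42.7, 31.4 and 30.0 CPM in Ctrl somas and 66.4, 57.0 and 69.1 CPM in Ctrl neurites. Its fractions did not overlap, and the log2 ratio was 0.88 ± 0.18 (adjusted p = 0.00288) with TMM and 0.19 with total counts. The call of *Psmc5* was lost without Ctrl somas replicate 2, without Ctrl somas replicate 3 and without Ctrl neurites replicate 3.

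The largest Ctrl ratios by size were those of the low genes *Psmb8* (1.41 ± 0.52, adjusted p = 0.0808), *Psmb10* (1.30 ± 0.52, adjusted p = 0.116) and *Psme2* (1.28 ± 0.61, adjusted p = 0.192). With the replicate block *Psmb8* was called (1.46, adjusted p = 0.0063). The lowest were those of *Psmg2* (−0.72 ± 0.56), *Psme4* (−0.48 ± 0.15, adjusted p = 0.0461) and *Psmd9* (−0.35 ± 0.24). *Psmg2* stood in somas at 7.46, 4.66 and 5.74 CPM under Ctrl and 7.12, 1.98 and 7.995 CPM under MG132, and in neurites at 3.17, 3.13 and 4.54 CPM and 5.48, 5.97 and 1.78 CPM in the same order. Its Ctrl neurites libraries lay just below its Ctrl somas libraries, and the MG132 fractions overlapped.

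**Figure D4:**
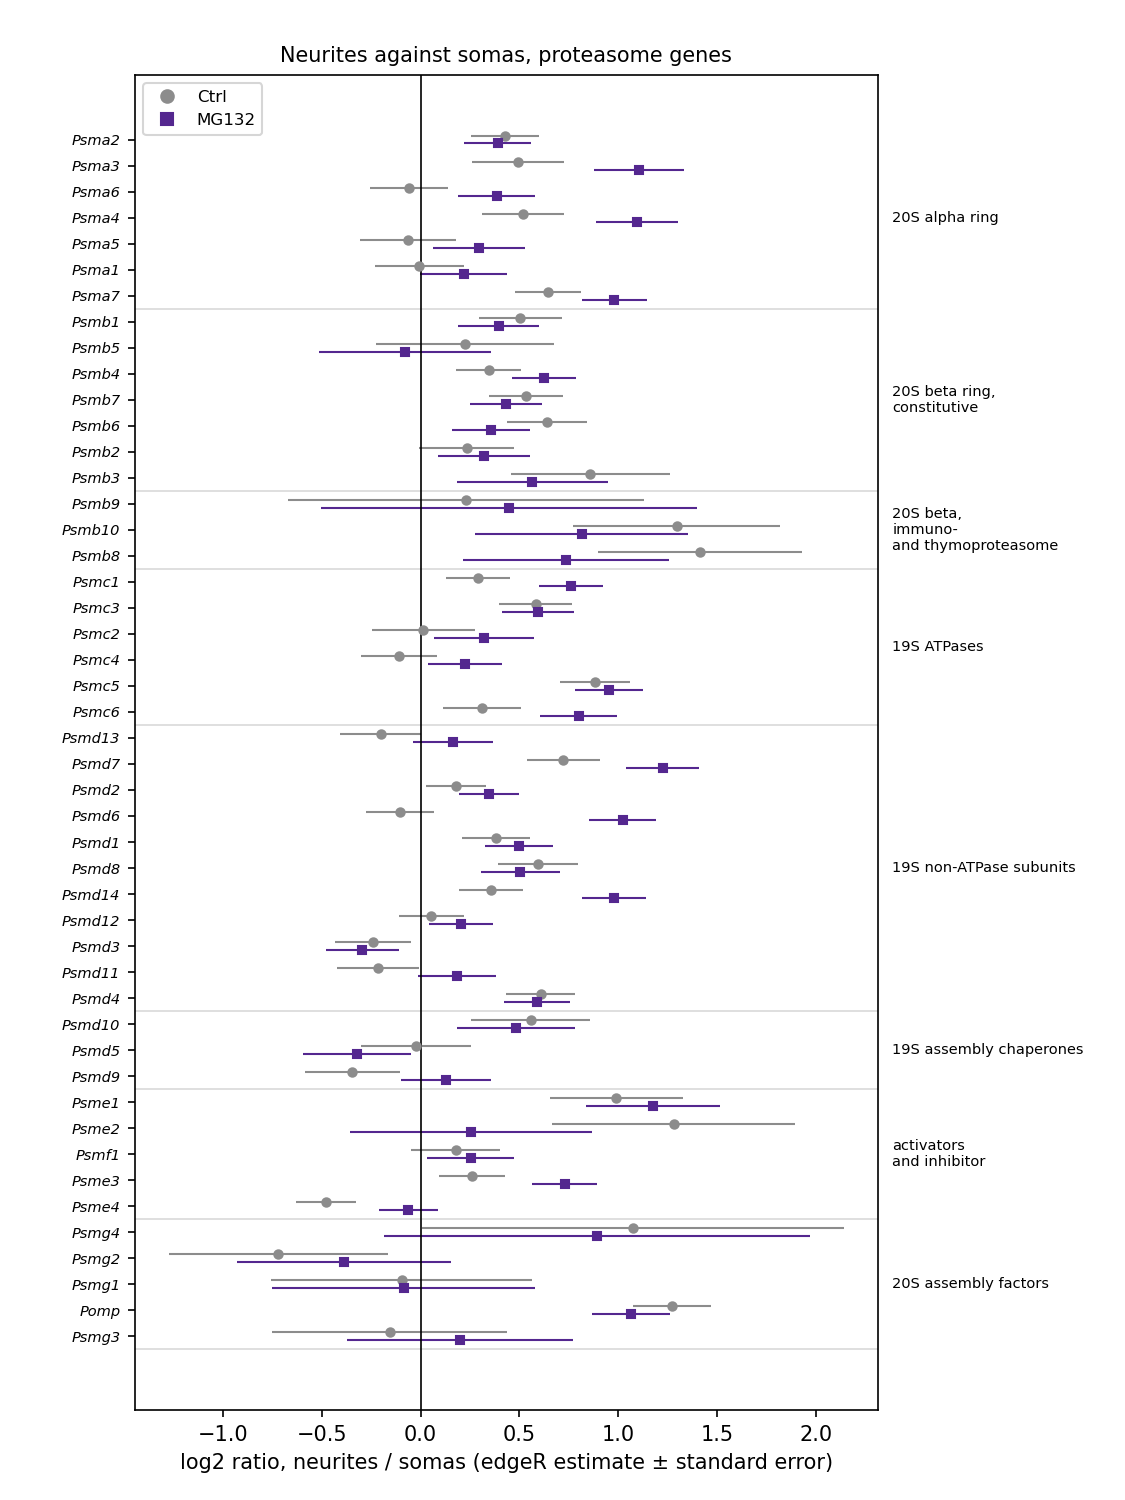
Log2 ratio of neurites to somas of the 47 tested proteasome genes in Ctrl (circles) and MG132 (squares) libraries, as edgeR estimates with standard errors after TMM scaling, from 3 libraries a group. Most estimates lie above 0, 33 in Ctrl and 41 with MG132, but with libraries scaled by total counts 9 and 11 do. That scaling moves the median of all genes to −0.70 and −0.86. The members' median remains 0.39 and 0.52 above it, as compared with 0.35 and 0.51 after TMM scaling.

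With MG132, 9 members were called higher in the neurites, against 6.92% of all tested genes, and 0 were called lower, against 2.08%, and DESeq2 also called 0 lower. At an unadjusted p under 0.05, 20 members were higher (42.6%, against 16.7% of all tested genes) and 0 were lower (against 14.3%). The 9 called were the alpha subunits *Psma3*, *Psma4* and *Psma7*, the ATPases *Psmc5* and *Psmc6*, the lid subunits *Psmd6*, *Psmd7* and *Psmd14*, and *Pomp*. Their log2 ratios ran from 0.80 for *Psmc6* to 1.23 for *Psmd7*, and the median over the 47 members was 0.43 against −0.08 for all tested genes. With the replicate block *Psmc1* (0.77, adjusted p = 0.000233) and *Psme1* (1.26, adjusted p = 0.00179) were called as well. With total counts 0 members were called and 11 of 47 were above 0. That scaling moved the median of all genes to −0.86 and the members' median to −0.34. The members remained 0.52 above the median of all genes, as compared with 0.51 with TMM. Without MG132 neurites replicate 2, the most deeply sequenced library, 5 were called, and *Pomp*, *Psma3*, *Psma4* and *Psmc6* were not. The call of *Psmc6* was lost in 5 of the 6 fits that leave out 1 MG132 library, all but that without MG132 somas replicate 3. That of *Psma3* was lost in 4, without MG132 somas replicate 1 or 2 and without MG132 neurites replicate 1 or 2. Astrocyte markers differed between these fractions too, with sums of 2438 to 3158 CPM in MG132 somas and 9639 to 19714 CPM in MG132 neurites. Without *Gfap* these sums were 1403 to 1509 CPM and 2230 to 2758 CPM. Of the 7 markers 4 were called higher and 1 lower in neurites, and their part in the ratios was not tested.

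Subunits of the assembled particle are present in equal copies, so their mRNA levels were also set side by side per kilobase of transcript. Each length was that of the longest protein-coding transcript with a RefSeq entry, 2846 bases for *Psma3* and 1042 for *Psma6*. Which transcripts these cells make was not tested, so the range and order of these levels depend on this choice. Over the 31 constitutive subunits of the core and the cap, the level in Ctrl somas ran from 3.79 CPM per kb for *Psma3* to 51.7 CPM per kb for *Psma6*, a 13.7-fold range around a median of 26.5 CPM per kb. In MG132 somas the median level was 66.4 CPM per kb and the highest was *Psmd4* at 101 CPM per kb. In Ctrl neurites the median was 36.2 CPM per kb, with *Psma7* the highest at 65.9 CPM per kb, and in MG132 neurites it was 90.0 CPM per kb, again with *Psma7* the highest at 188 CPM per kb. The order of levels was similar between the Ctrl fractions (Spearman's rho 0.87 over 31 genes, which share transcript lengths and shared sequence). Between the level in Ctrl somas and the response there, rho was −0.14. The same Ctrl libraries enter both of these values, so this rho cannot decide whether level and response are related. At least 10% of the 75-base stretches are shared with another transcript for 12 members, *Psma3*, *Psma5*, *Psmb3* and *Psmb5* among them, and their levels are uncertain.

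The promoters are shown because many members moved together and because the antioxidant response element, to which NRF1 and its small MAF partners bind, is known at proteasome genes. RefSeq windows of GRCm38.p6, from 250 bases before to 50 after each start, were found for 41 members (44 windows). The core TGACNNNGC, searched on both strands, was present in 6 of the 44 windows (13.6%), and in 12.4% of all 32851 windows of this length. Each match is given 5′ to 3′ on the strand of the gene, with the core in capitals, written as its reverse complement where it lies on the other strand.
Psmb5: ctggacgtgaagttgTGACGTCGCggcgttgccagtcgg
Psmb6: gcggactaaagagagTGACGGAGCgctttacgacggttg
Psmd9: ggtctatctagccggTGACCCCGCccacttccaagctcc
Psme4: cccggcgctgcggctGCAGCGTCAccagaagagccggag
Psmc6: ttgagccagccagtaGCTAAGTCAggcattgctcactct
Psmd12: tctGCTGTGTCAcatttgcccccctca

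The windows that hold these matches are chr14:54617946-54618245 for *Psmb5* (minus strand), chr11:70525107-70525406 for *Psmb6*, chr5:123227940-123228239 for *Psmd9*, chr11:30771525-30771824 for *Psme4*, chr14:45329574-45329873 for *Psmc6* and chr11:107479278-107479577 for *Psmd12*. The cores of *Psmb5*, *Psmb6*, *Psmd9* and *Psme4* begin 47, 9, 31 and 7 bases before the start, that of *Psmc6* 227 bases before it, and that of *Psmd12* near the far end of its window. The heat shock element cores GAANNTTC and TTCNNGAA were present in 5 of the 44 windows together (11.4%) as compared with 15.1% of all windows, and the box CCAAT in 14 (31.8%) as compared with 37.4%. A match is only a run of letters in this window and no measure of binding.

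Genes that work with the proteasome but carry other names were followed as a fixed list of 26 genes, all tested. Of these, 16 were called higher with MG132 in somas and 13 in neurites, against 9% and 9.25% of all tested genes, 0 were called lower by edgeR or DESeq2 or were lower at an unadjusted p under 0.05, and their median log2 fold changes were 1.04 and 0.88. Subunits and partners outside the name rule gave 7 and 8 of 11, ubiquitin shuttles and p97 with its cofactors 6 and 4 of 9, and the genes of the NRF1 pathway 3 and 1 of 6.

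The gene with the largest response in somas was *Zfand2a*, which encodes a stress-induced partner of the proteasome. It read 21.6, 30.3 and 23.6 CPM (Ctrl) and 238.4, 241.9 and 274 CPM (MG132) in somas, and 51.6, 29.4 and 21.9 CPM (Ctrl) and 159, 198 and 208 CPM (MG132) in neurites. The treatments were widely separated, with log2 fold changes of 3.32 ± 0.27 (adjusted p = 1.61e-06) and 2.47 ± 0.26 (adjusted p = 1.38e-05). *Maff*, a small MAF gene, rose by 2.41 ± 0.40 on the log2 scale in somas (adjusted p = 0.000544) and gave 0.71 ± 0.35 (adjusted p = 0.143) in neurites, where its Ctrl level was already 29.1, 41.0 and 64.9 CPM as compared with 1.66, 2.22 and 3.09 CPM in Ctrl somas. The difference of its responses was −1.698 ± 0.525 (adjusted p = 0.472), so the fractions were not shown to differ. *Nploc4*, which encodes a cofactor of p97, rose by 2.30 ± 0.17 and 2.17 ± 0.18. The lowest estimates in somas were those of *Ngly1*, the enzyme that removes sugars from NRF1 (−0.24 ± 0.27), of *Sem1*, a small subunit of the cap (0.07 ± 0.24), and of *Ubqln2*, a shuttle (0.07 ± 0.22), and none of these was called with MG132 in either fraction.

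The gene of NRF1 and the shuttle gene *Ubqln1* were added after their values were seen. *Nfe2l1* was measured in somas at 135, 140 and 171 CPM without and 202, 210 and 234 CPM with MG132, and in neurites at 668, 668 and 1169 CPM without and 644, 740 and 801 CPM with it. It was far higher in neurites than in somas in Ctrl cultures (log2 ratio 2.49 ± 0.23, adjusted p = 4.28e-06), while its change with MG132 was 0.54 ± 0.22 (adjusted p = 0.0785) in somas and −0.20 ± 0.21 (adjusted p = 0.528) in neurites. *Ubqln1* stood in somas at 112, 90.4 and 108 CPM under Ctrl and 249, 265 and 287 CPM under MG132, and in neurites at 240.5, 218 and 252 CPM and 274, 287 and 295 CPM in the same order. It was called higher with MG132 in somas (1.37 ± 0.15) and gave 0.27 ± 0.15 in neurites, and the difference of −1.10 ± 0.21 had an adjusted p of 0.328 without and 0.00558 with the replicate block.

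**Figure D5:**
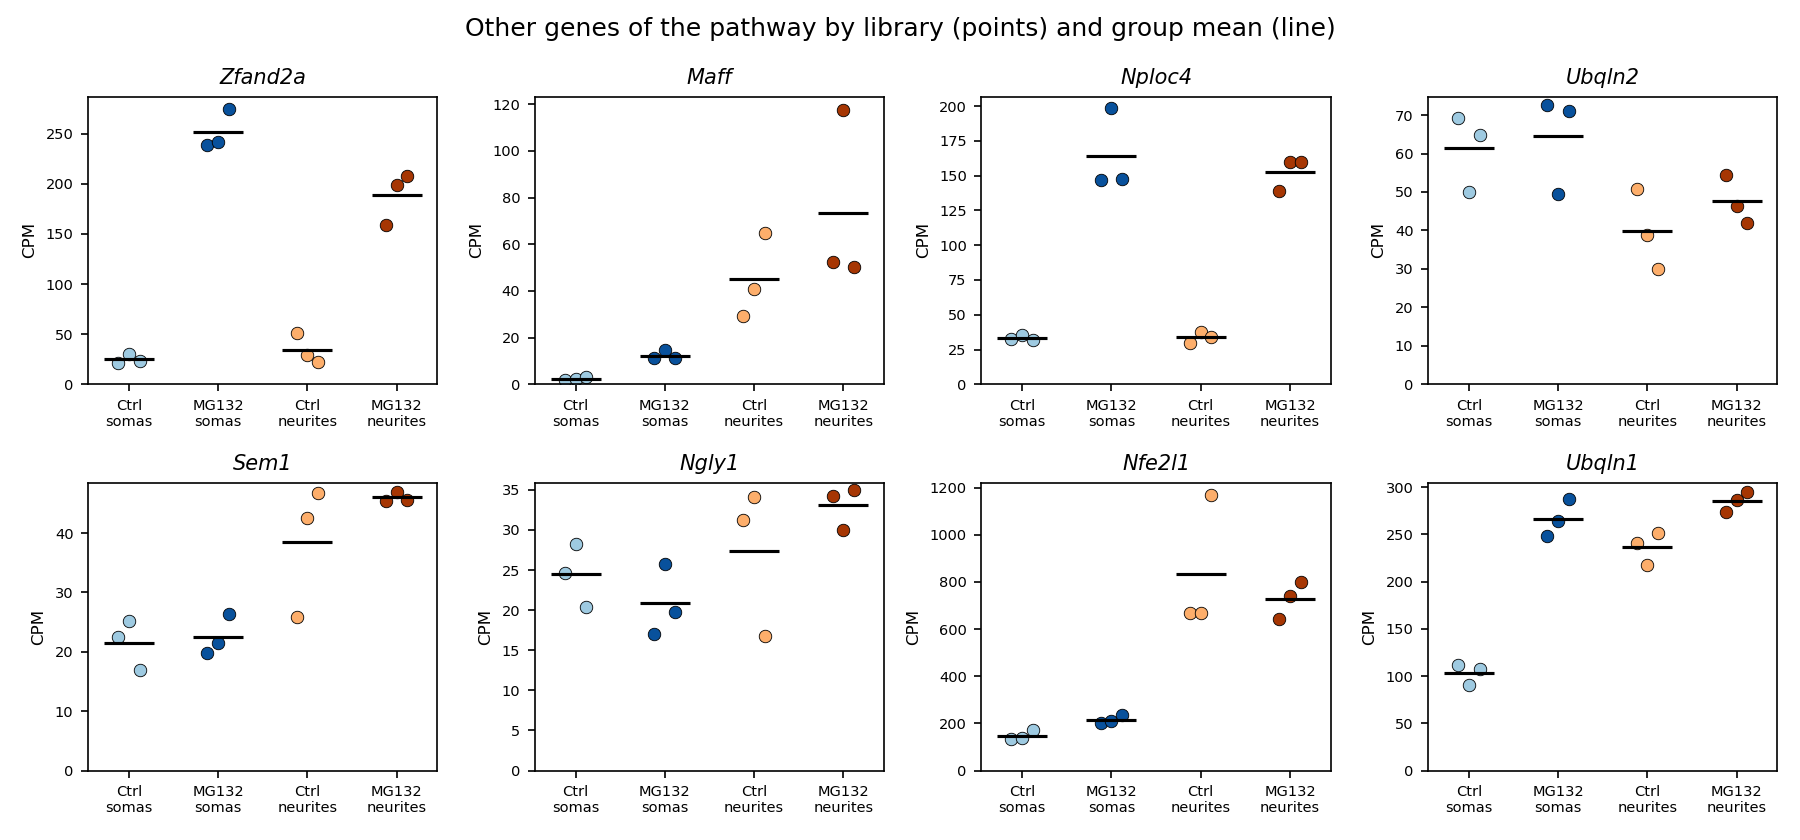
CPM of 8 other genes of the pathway in each library (points) with group means (lines), on linear axes that start at 0. *Zfand2a* and *Nploc4* rise with MG132 in both fractions, and *Nfe2l1* is highest in neurites under both treatments. *Maff* and *Ubqln1* were called higher in somas and not in neurites, where their Ctrl level is higher. Without the replicate block neither difference of responses passed the threshold, and with it that of *Ubqln1* did.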

How the data were processed

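The methods name a paired-end run and the labels single-end sequencing. The authors trimmed single-end reads with Trimmomatic 0.38.0, aligned them to mm10 with STAR and counted reads per gene with featureCounts 2.0.1 at default settings, and the deposited files hold raw counts per Entrez gene (27179 per library, with no normalization). The authors' own comparison used DESeq2 2.11.40.7 and is not used here. Beyond the default settings of featureCounts, no strand setting is named in the sources used here. Entrez identifiers were matched to RefSeq symbols (25275, 93%). No 2 libraries of the 66 pairs held identical counts.

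The fits used edgeR 4.0.16 under R 4.3.3 (filterByExpr, TMM, quasi-likelihood F test, 4 group means over 12 libraries) and Benjamini-Hochberg adjustment over 14185 genes. The difference of MG132 responses was called on adjusted p alone. DESeq2 1.42.0, other scalings, filters and thresholds, and leaving out each library were alternatives. TMM factors ran from 0.567 to 1.44, mitochondrial genes took 9.78% to 29.2% of counts and 1 gene (Entrez 100861531) 12.4% to 33.4%.

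Groups share replicate numbers in the labels. Deviations of same-numbered libraries correlated at 0.0972 to 0.248, with 17 of 18 pairs over 0.1, and the exception was no comparison made here, so the numbers were taken as pairs and a fit with the number as a block was run. No label says what a number stands for, and dates in the file names follow the numbers for all but 1 MG132 neurites library, so values from that fit rest on this pairing. Values in every library are given for the members with the highest and lowest soma response in each role group, the 3 highest and lowest Ctrl fraction ratios, the 3 largest differences of responses and members called in 1 fraction, and for further members chosen after their values were seen (*Psmb5*, *Psmc5*, *Pomp*). The members and gene lists were chosen with earlier results of these data known. The fits were tested on simulated data.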

Additional observations from a re-analysis of the deposited data

How the results depend on the processing

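With libraries scaled by total counts, the members called higher with MG132 were 9 in somas and 15 in neurites, and those called higher in neurites than in somas were 0 in Ctrl and 0 with MG132. A threshold of 1.7 on the log2 scale left 4, 7, 0 and 0 in the same order. With an adjusted p under 0.05 and no fold threshold, the Ctrl fractions gave 7 members higher and 1 lower in neurites and the MG132 fractions gave 15 higher. A fit of the compared groups alone gave 1 for the Ctrl fractions. With mitochondrial genes and the most abundant gene left out, the 28 calls in somas, 30 in neurites, 2 between the Ctrl fractions and 9 between the MG132 fractions were kept. That fit also called *Psmb1* with MG132 in neurites and *Psmc1* between the MG132 fractions. DESeq2 called 1 member for the difference of responses. Leaving out 1 library at a time gave 21 to 24 members in somas, 30 to 31 in neurites, 1 to 2 between the Ctrl fractions, 5 to 10 between the MG132 fractions and 0 for the difference. The shares of all tested genes called under these alternatives are not given here. The estimate of *Psmd10* changed sign in neurites with total counts (−0.027) and in somas without Ctrl somas replicate 2 (−0.0037, in a range up to 0.36 over the fits that leave out a library), and neither passed. The cause of these changes was not tested beyond the fewer libraries or the stricter rule that some of them use.

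The fit with the replicate block called 31 members in somas, 30 in neurites, 3 between the Ctrl fractions, 11 between the MG132 fractions and 0 for the difference. It lost no call of the fit without it and changed no other call of a member than those given beside the results. Among the values of single named genes under the alternatives, 655 kept their direction and side of the threshold, 41 fell below it, 22 passed it and 2 changed sign.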
